A study of Mus musculus with 9 samples.

Results

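The genes by which liver cells sense lipopolysaccharide and related microbial products were followed across 9 mouse liver libraries from a study of concanavalin A hepatitis. They comprised 7 of the 42188 genes in the deposited tables and were found by gene symbol: Lbp, Cd14, Ly96, Tlr4, Tlr2, Tlr3 and Myd88. Each symbol matched 1 row, and all 7 were among the 14603 genes whose counts were high enough to be tested.

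Lipopolysaccharide from the wall of Gram-negative bacteria reaches the liver through portal blood. Lipopolysaccharide-binding protein, a plasma protein that hepatocytes release in the acute-phase response, hands it to CD14, and CD14 passes it to the complex of TLR4 and MD-2, the product of Ly96. Most Toll-like receptors then signal through the adaptor MyD88 to NF-kappa-B, whereas TLR3, a sensor of double-stranded RNA, signals through the adaptor TRIF.

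MSA_ConA mice received MSA by intraperitoneal injection at 250 mg/kg and, 6 h later, concanavalin A at 20 mg/kg, a plant lectin that activates T cells. MSA was read as mesaconate, the compound in the study's title. ConA mice received that dose of concanavalin A alone, by tail vein, and Control mice received saline by that route. Each group held 3 libraries numbered 1 to 3, from livers taken 12 h after the lectin. By their labels, all 9 mice were wild-type C57BL/6 males of 8 weeks and 20 to 25 g. What each library number stands for is not given in the sources used here. The p-values of the main tests between groups measure the spread between these 3 libraries a group. Where a fit leaves libraries out, or gives each library numbered 1 its own mean, only the spread of the remaining libraries is measured.

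The libraries held 13294600 to 17276391 counts each, and those numbered 1 stood apart from the others in all 3 groups. Xist, the transcript that coats the inactive X chromosome of females, measured at most 0.485 CPM (counts scaled by library total) in the 3 libraries numbered 1 but 667 to 1132 CPM in the 6 others, although the labels call all 9 mice male. Nnt, part of which is deleted in the C57BL/6J substrain, stood at 29.8 to 34.7 CPM in number 1, against 168 to 266 CPM in numbers 2 and 3. Of the 14603 genes, 38.3% differed between number 1 and numbers 2 and 3 with the groups taken into account (edgeR's quasi-likelihood test, Benjamini-Hochberg adjusted p under 0.05). Libraries are named below as their labels name them, and each result is given for number 1 and for numbers 2 and 3. Hepatocyte markers summed to 99316 to 165698 CPM in the 9 libraries.

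Lbp was the most abundant of the 7 transcripts per unit of gene length and Tlr4 the least. FPKM, counts scaled by gene length and library total, permits that comparison between genes. In the 6 libraries numbered 2 and 3, Lbp measured 14.6 to 23.5 FPKM and Myd88 4.37 to 5.96 FPKM. Ly96 at 1.90 to 2.72 FPKM, Tlr3 at 1.65 to 2.51 FPKM and Cd14 at 0.952 to 2.91 FPKM overlapped and could not be ordered. Tlr2 at 0.607 to 0.845 FPKM and Tlr4 at 0.254 to 0.522 FPKM lay below them without overlap. Lbp led in 7 of the 9 libraries, and Tlr4 was lowest in all 9, at 0.0953 to 0.522 FPKM. In the library labelled MSA_ConA 1 and in that labelled ConA 1, Cd14 led instead, at 98.7 FPKM in MSA_ConA 1 and 816 FPKM in ConA 1.

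**Figure D1:**
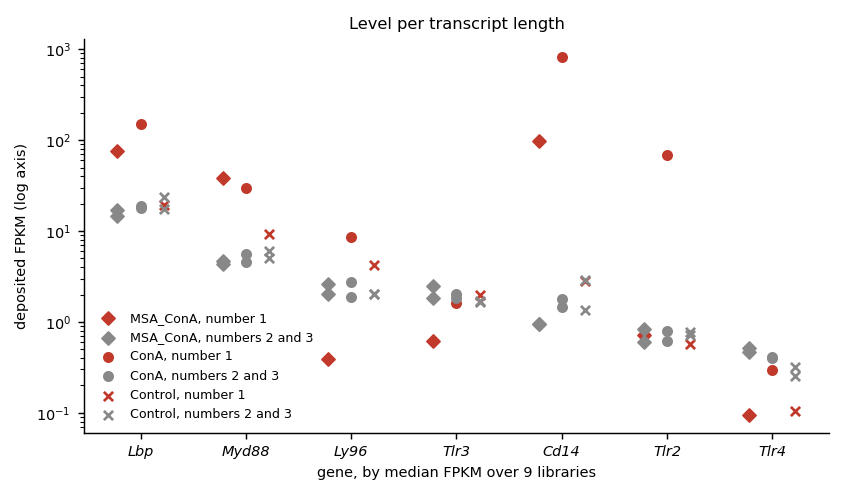
Level of each gene per unit of length (deposited FPKM, log axis) in each of the 9 libraries, with MSA_ConA left of ConA and ConA left of Control. Lbp lies highest and Tlr4 lowest in most libraries, and Cd14 reaches 816 FPKM in ConA 1 and 98.7 FPKM in MSA_ConA 1.

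Lbp, on chromosome 2 (168242603 to 168272934, plus strand of the C57BL/6NJ assembly whose coordinates the tables carry), measured 356, 82.4 and 73.0 CPM in MSA_ConA libraries 1, 2 and 3, against 723, 90.4 and 91.6 CPM in ConA libraries 1, 2 and 3. Control libraries 1, 2 and 3 measured 94.9, 85.4 and 115 CPM. The libraries MSA_ConA 1 and ConA 1 were high, and the other 7 lay between 73.0 and 115 CPM, with MSA_ConA 2 and 3 the lowest. ConA 1 held 7.63 times the Lbp of Control 1 (7.18 to 8.10), where the bracketed range is the exact 95% interval for counting error between single libraries and covers no difference between animals. MSA_ConA 1 held 2.03-fold less than ConA 1 (1.94 to 2.12) and 3.76 times as much as Control 1 (3.51 to 4.02).

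Cd14, on chromosome 18 (36372226 to 36373888, minus strand), encodes the co-receptor that binds lipopolysaccharide at the cell surface and in plasma. It measured 152, 1.496 and 1.55 CPM in MSA_ConA libraries 1, 2 and 3, against 1279, 2.94 and 2.27 CPM in ConA libraries. Control libraries measured 4.47, 4.65 and 2.19 CPM. Cd14 thus reached its 2 high values in the treated libraries numbered 1. In numbers 2 and 3 both MSA_ConA values lay below the ConA and Control values, a difference from Control that did not pass the test (edgeR on these 6 libraries, adjusted p of 0.164), and ConA overlapped Control. The ratio of ConA 1 to Control 1 was 286 (222 to 375), the highest of the 7 genes. MSA_ConA 1 lay 8.40-fold below ConA 1 (7.91 to 8.93) and 34.0 times above Control 1 (26.2 to 44.9). In tissue RNA, fewer cells of a type and less RNA per cell cannot be told apart.

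Ly96, on chromosome 1 (14819679 to 14843528, plus strand), encodes MD-2, the subunit that holds the lipid part of lipopolysaccharide against TLR4. It measured 0.396, 2.66 and 2.12 CPM in MSA_ConA libraries, 8.64, 2.01 and 2.79 CPM in ConA libraries and 4.32, 2.09 and 2.08 CPM in Control libraries. The value of MSA_ConA 1 rests on 3 counts, against 89 counts in ConA 1 and 58 counts in Control 1. It was the lowest of the 9 and ConA 1 was the highest. MSA_ConA 1 lay 21.8-fold below ConA 1, with a counting interval of 7.23 to 108, and 10.9-fold below Control 1 (3.56 to 54.5). ConA 1 held 2.00 times the Ly96 of Control 1 (1.42 to 2.83).

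Tlr4, on chromosome 4 (68196565 to 68300432, plus strand), encodes the receptor itself. It measured 0.528, 2.66 and 3.04 CPM in MSA_ConA libraries, 1.65, 2.37 and 2.33 CPM in ConA libraries and 0.597, 1.83 and 1.46 CPM in Control libraries. These are small numbers: 4 counts in MSA_ConA 1, 17 counts in ConA 1 and 8 counts in Control 1, with 28 to 59 counts elsewhere. In numbers 2 and 3 the 2 MSA_ConA values lay above the 2 ConA values, and both above the Control values, but no pair of groups differed by the test (edgeR on these 6 libraries, adjusted p of 0.197 for MSA_ConA against Control). ConA 1 held 2.77 times the Tlr4 of Control 1 (1.13 to 7.41), and MSA_ConA 1 held 3.13-fold less than ConA 1 (1.02 to 12.8). The interval for MSA_ConA 1 below Control 1, 0.303 to 5.13, spans 1, so that no difference was detectable at this depth.

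**Figure D2:**
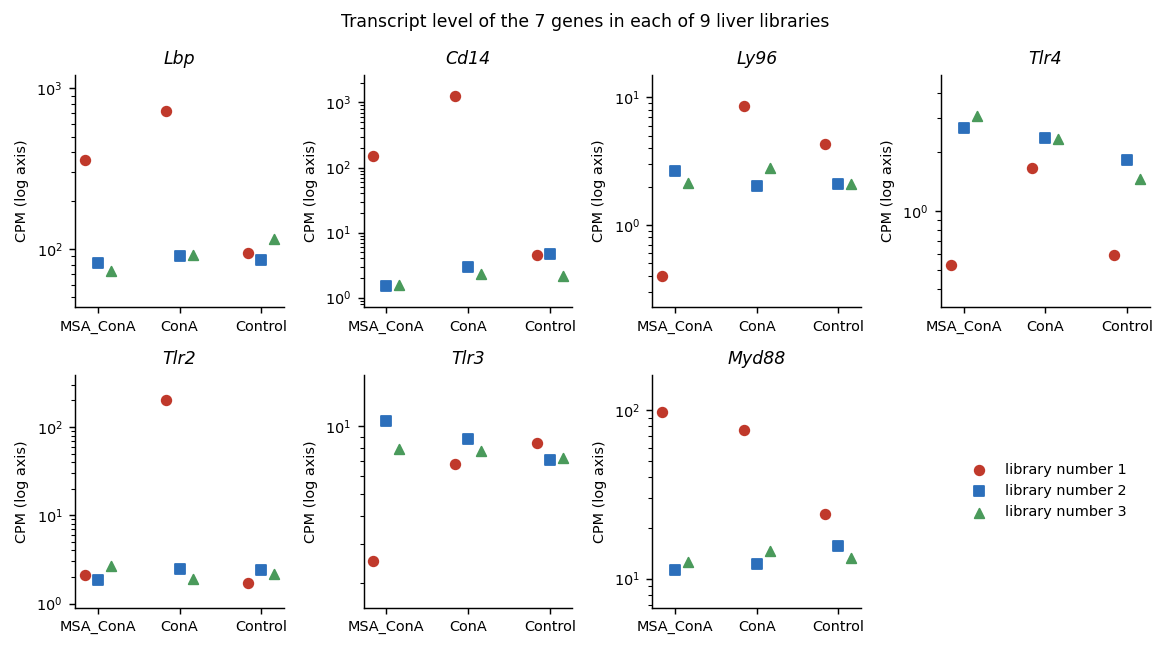
CPM of each of the 7 genes in every library on log axes, with MSA_ConA left of ConA and ConA left of Control and a separate symbol for each library number. For Lbp, Cd14, Tlr2 and Myd88 the libraries that stand above the rest are numbered 1. In numbers 2 and 3 the 3 groups overlap for Tlr2, and MSA_ConA lies below Control for Lbp, Cd14 and Myd88.

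Tlr2, on chromosome 3 (86842477 to 86847972, minus strand), encodes the receptor for bacterial lipoproteins, which works in pairs with TLR1 or TLR6. It measured 2.11, 1.83 and 2.63 CPM in MSA_ConA libraries, 204, 2.48 and 1.88 CPM in ConA libraries and 1.72, 2.40 and 2.19 CPM in Control libraries. ConA 1, with 2106 counts, was the only high library of the 9, and the other 8 lay between 1.72 and 2.63 CPM. The ratio of ConA 1 to Control 1 was 119 (79.2 to 188). MSA_ConA 1 lay 96.9-fold below ConA 1 (59.5 to 170) and overlapped Control 1 within counting error, at a ratio of 1.23 (0.608 to 2.43). Cd14 and Tlr2 thus differed in MSA_ConA 1: Cd14 there was far above Control 1 and Tlr2 was not distinguishable from it.

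Tlr3, on chromosome 8 (46134001 to 46153968, minus strand), measured 2.51, 10.5 and 7.94 CPM in MSA_ConA libraries, 6.80, 8.77 and 7.73 CPM in ConA libraries and 8.43, 7.05 and 7.24 CPM in Control libraries. MSA_ConA 1 was the single low library, and the other 8 lay between 6.80 and 10.5 CPM. It held 2.71-fold less Tlr3 than ConA 1 (1.61 to 4.77) and 3.36-fold less than Control 1 (2.06 to 5.79). ConA 1 lay 1.24-fold below Control 1, with an interval of 0.912 to 1.70 that spans 1.

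Myd88, on chromosome 9 (125435131 to 125440608, minus strand), measured 97.0, 11.2 and 12.6 CPM in MSA_ConA libraries, 76.2, 12.2 and 14.5 CPM in ConA libraries and 24.2, 15.6 and 13.2 CPM in Control libraries. All 3 libraries numbered 1 lay above all 6 others, the untreated one included. MSA_ConA 1 held 4.00 times the Myd88 of Control 1 (3.51 to 4.57) and ConA 1 held 3.14 times (2.76 to 3.59). With the scaling used here, MSA_ConA 1 held 1.27 times as much as ConA 1 (1.15 to 1.41). Myd88 was the only one of the 7 that was higher in MSA_ConA 1 than in ConA 1. The counts were 735 in MSA_ConA 1 and 785 in ConA 1, with TMM factors of 0.571 and 0.674. The size of this ratio thus depends on the scaling, which the interval does not cover. A protein-coding gene without a symbol overlaps Myd88 on the other strand. It measured 383, 164 and 139 CPM in MSA_ConA libraries, 296, 194 and 168 CPM in ConA libraries and 212, 262 and 249 CPM in Control libraries. Whether the counting used strand is not given in the sources used here, so reads of the 2 genes may not have been told apart.

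Promoters are shown for Tlr2, Tlr3 and Myd88. In number 1, Tlr2 was high in ConA 1 alone, Tlr3 was low in MSA_ConA 1 alone, and Myd88 was high in both treated libraries. The runs are the 250 bases before the RefSeq start of each gene in GRCm38.p6, all on the minus strand, and were matched for 3 of the 7 genes. Capitals mark matches, on either strand, to the NF-kappa-B consensus, to the interferon-response pattern (GAAA, any 2 bases, GAAA), to the STAT pattern TTCNNNGAA or to the C/EBP pattern TTGCNNAA.
Tlr2, chr3:83841609-83841858: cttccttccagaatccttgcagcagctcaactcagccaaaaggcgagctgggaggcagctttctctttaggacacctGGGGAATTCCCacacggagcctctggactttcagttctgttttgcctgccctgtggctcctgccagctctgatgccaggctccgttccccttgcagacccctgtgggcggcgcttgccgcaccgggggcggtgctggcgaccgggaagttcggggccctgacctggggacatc
Tlr3, chr8:45410381-45410630: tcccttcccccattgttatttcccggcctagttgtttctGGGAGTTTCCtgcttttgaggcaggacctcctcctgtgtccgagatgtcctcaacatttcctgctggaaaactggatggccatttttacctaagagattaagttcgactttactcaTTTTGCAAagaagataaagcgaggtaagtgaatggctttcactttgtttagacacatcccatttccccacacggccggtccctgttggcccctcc
Myd88, chr9:119340019-119340268: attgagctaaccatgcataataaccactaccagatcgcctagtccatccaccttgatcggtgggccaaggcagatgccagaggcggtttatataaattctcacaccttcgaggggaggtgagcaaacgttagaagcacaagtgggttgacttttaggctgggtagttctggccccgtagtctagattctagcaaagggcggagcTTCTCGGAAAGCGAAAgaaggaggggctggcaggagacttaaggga

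In the Tlr2 promoter the capitals, at -173 to -163 from the start, are overlapping matches to the NF-kappa-B consensus, 1 of which reads as a match on both strands. The Tlr3 promoter holds a match to that consensus at -211 to -202 and a match to TTGCNNAA at -95 to -88. The Myd88 promoter holds TTCNNNGAA at -46 to -38, which overlaps a match to the interferon-response pattern at -40 to -31. Of 32851 mouse promoters of this length, 7.25% hold the NF-kappa-B consensus, 2.98% hold the interferon-response pattern, 7.02% hold TTCNNNGAA and 9.56% hold TTGCNNAA. A match is a run of letters and does not show that a factor binds there.

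Between ConA and Control, Tlr2 and Cd14 had the highest fitted differences of the 7 genes, but none of the 7 passed the test over the 3 libraries a group. This comparison addresses what concanavalin A did to liver transcripts. Tlr2 averaged 69.6 ± 117 CPM in ConA libraries, against 2.10 ± 0.35 CPM in Control libraries (SD, n = 3 each), a log2 fold change of 5.04 (SE 1.64, edgeR adjusted p of 0.9997). Cd14 averaged 428 ± 737 CPM in ConA libraries, against 3.77 ± 1.37 CPM in Control libraries, a log2 fold change of 6.83 (SE 2.83). Lbp had a log2 fold change of 1.61 (SE 0.92) and Myd88 of 0.95 (SE 0.96), while Tlr4 at 0.70, Ly96 at 0.66 and Tlr3 at 0.04 lay closer to 0. The share of all genes called was 0%, with 563 genes at an unadjusted p under 0.05, and DESeq2 called 2 genes, neither of them among the 7. The median log2 fold change of the 7 genes was 0.95, beside 0.07 over all genes tested. In the libraries numbered 2 and 3, Tlr2 had a log2 fold change of -0.09, Cd14 of -0.40, Lbp of -0.16 and Myd88 of -0.13 (edgeR, none called). Without ConA 1 alone the values were 0.05 for Tlr2, -0.53 for Cd14, -0.12 for Lbp, -0.41 for Myd88 and -0.24 for Ly96.

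Between MSA_ConA and ConA, which addresses what MSA given beforehand did, 6 of the 7 fitted values were negative and none passed the test. Tlr2 averaged 2.19 ± 0.41 CPM in MSA_ConA and 69.6 ± 117 CPM in ConA (SD, n = 3 each), with a log2 fold change of -4.98 (SE 1.64, edgeR adjusted p of 0.9999). Cd14 had a log2 fold change of -3.05 (SE 2.37), Ly96 of -1.34 (SE 0.80), Lbp of -0.82, Tlr3 of -0.14 and Tlr4 of -0.01, while Myd88 stood at 0.23. The share of all genes called was 0%, with 248 genes at an unadjusted p under 0.05 and none called by DESeq2. The median of the 7 genes was -0.82, beside 0.02 over all genes tested. In the libraries numbered 2 and 3 the log2 fold changes were 0.05 for Tlr2, 0.18 for Tlr3 and 0.30 for Tlr4, against -0.76 for Cd14 and -0.21 for Lbp, and none was called (edgeR). Without ConA 1 alone, Tlr2 stood at 0.0035, Cd14 at 4.29 and Lbp at 0.89. Without MSA_ConA 1 alone, Cd14 stood at -8.12, Tlr3 at 0.25, Tlr4 at 0.42 and Myd88 at -1.52.

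Between MSA_ConA and Control, Cd14 had the highest fitted value, with 51.8 ± 87.0 CPM in MSA_ConA and 3.77 ± 1.37 CPM in Control (SD, n = 3 each), a log2 fold change of 3.77 (SE 2.46, edgeR adjusted p of 0.946). Myd88 had a log2 fold change of 1.18, Lbp of 0.79, Tlr4 of 0.69, Tlr2 of 0.06, Tlr3 of -0.11 and Ly96 of -0.68, and none of the 7 was called. The share of all genes called was 0%, with 730 genes at an unadjusted p under 0.05, and DESeq2 called 55 genes, none of them among the 7. The median of the 7 genes was 0.69, beside 0.07 over all genes tested. In the libraries numbered 2 and 3, Cd14 had a log2 fold change of -1.16, with an edgeR adjusted p of 0.164. Without MSA_ConA 1 alone, Cd14 stood at -1.31, Myd88 at -0.57, Lbp at -0.35 and Tlr3 at 0.28. The 3 comparisons share libraries, so that their values are not independent of each other.

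**Figure D3:**
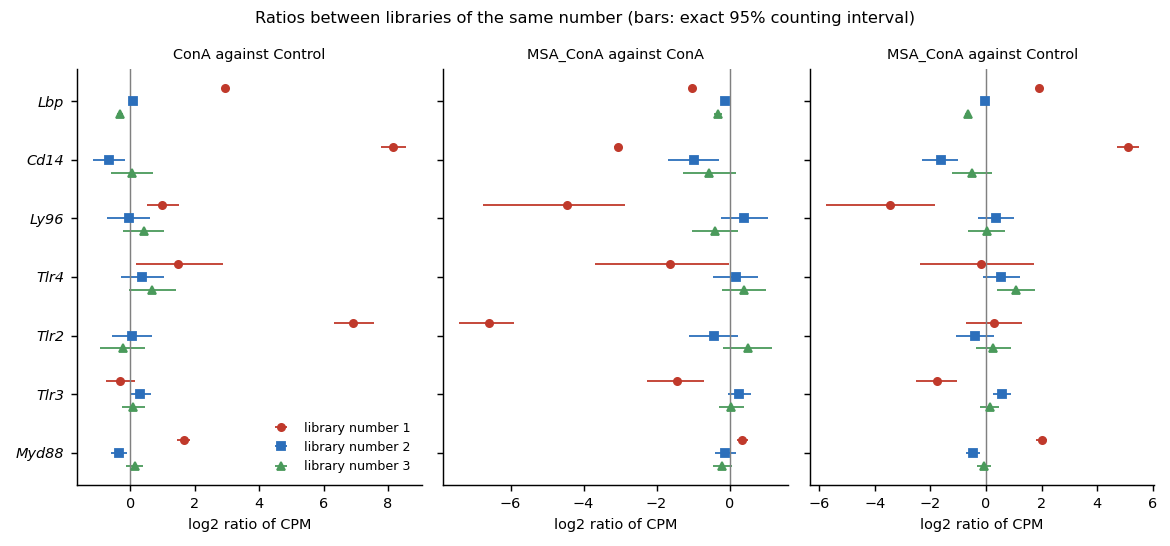
Log2 ratio of CPM for each of the 7 genes within each library number, for MSA_ConA over ConA, ConA over Control and MSA_ConA over Control, with exact 95% intervals for counting error. The ratios of number 1 spread from -6.60 for Tlr2 in MSA_ConA over ConA to 8.16 for Cd14 in ConA over Control, while those of numbers 2 and 3 lie between -1.64 and 1.06.

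With the groups taken into account, the fitted values of Cd14, Myd88 and Lbp were higher in number 1 than elsewhere, and that of Tlr4 was lower. For Cd14 and Lbp only the treated libraries numbered 1 were high. Control 1 measured 4.47 CPM of Cd14, between Control 2 (4.65) and Control 3 (2.19). Its Lbp, at 94.9 CPM, also lay between those of Control 2 (85.4) and Control 3 (115). Against the 38.3% of all genes called, 4 of the 7 genes were called (edgeR). The log2 difference was 6.76 for Cd14 (SE 1.43, adjusted p of 0.00833), 2.21 for Myd88 (SE 0.36, adjusted p of 0.00328) and 1.92 for Lbp (SE 0.48, adjusted p of 0.0151). Tlr4 stood at -1.33 (SE 0.45, adjusted p of 0.0460), and its call was lost when any one of 8 libraries was left out and with relative log expression factors (adjusted p of 0.0513). Without ConA 1, 2 genes were called in place of 4, Cd14 standing at 4.59 and Lbp at 1.20, neither past the threshold (edgeR adjusted p of 0.0580 and 0.0992). Without MSA_ConA 1, 2 genes were called, and the adjusted p was 0.0635 for Cd14 and 0.0834 for Lbp. Tlr2 at 2.88, Ly96 at 0.68 and Tlr3 at -0.51 were not called, although DESeq2 called Tlr2 (adjusted p of 0.0408). Genes called higher numbered 2785 of 5592 with the scaling used here and 1083 of 6532 with library totals in its place.

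Whether an effect itself differed by library number was tested in a model with a mean for each group and number class. It leaves 3 residual degrees of freedom and takes the lone library numbered 1 of each group to vary as numbers 2 and 3 do. The effect of ConA against Control was higher in number 1 for 4 of the 7 genes, beside 31.1% of all genes called either way (edgeR). The difference on the log2 scale was 8.54 for Cd14 (SE 0.60, adjusted p of 0.000287), 6.96 for Tlr2 (SE 0.41, adjusted p of 0.000197), 3.07 for Lbp (SE 0.32, adjusted p of 0.00104) and 1.77 for Myd88 (SE 0.28, adjusted p of 0.00441). Ly96 at 0.80, Tlr4 at 0.94 and Tlr3 at -0.52 did not pass.

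The effect of MSA_ConA against ConA was lower in number 1 for 4 of the 7 genes, beside 18.7% of all genes called either way (edgeR). The difference was -6.63 for Tlr2 (SE 0.43, adjusted p of 0.000347), -4.42 for Ly96 (SE 0.70, adjusted p of 0.00769), -2.29 for Cd14 (SE 0.55, adjusted p of 0.0288) and -1.60 for Tlr3 (SE 0.44, adjusted p of 0.0451). Without ConA 2 or without ConA 3, the calls of Cd14 and Tlr3 were lost and Tlr2 and Ly96 remained. The call of Tlr3 was lost in 5 of 7 such omissions and with DESeq2 (adjusted p of 0.117). Lbp at -0.79, Tlr4 at -1.91 and Myd88 at 0.51 did not pass, although Lbp passed at -1.07 with library totals (edgeR adjusted p of 0.0328). The effect of MSA_ConA against Control differed for 5 of the 7, beside 32.6% of all genes: Cd14 by 6.25, Lbp by 2.28 and Myd88 by 2.27 were higher in number 1, and Ly96 by -3.62 and Tlr3 by -2.12 were lower (edgeR adjusted p of 0.000749 for Cd14 to 0.0109 for Tlr3). With library totals in place of the scaling used here, the called genes that were higher numbered 1325 of 5470 for the first effect, 762 of 2809 for the second and 956 of 6183 for the third, in place of 2287 of 4537, 1255 of 2724 and 2342 of 4767.

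**Figure D4:**
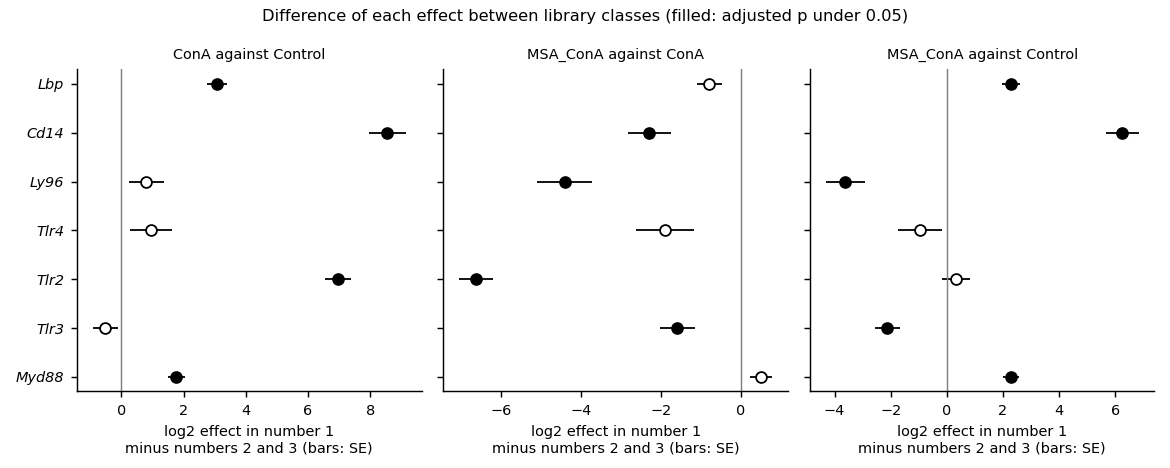
Difference of each effect between number 1 and numbers 2 and 3 on the log2 scale with its standard error, for the 7 genes and the 3 comparisons. Cd14 and Tlr2 stand at 8.54 and 6.96 for ConA against Control, and Tlr2 and Ly96 stand at -6.63 and -4.42 for MSA_ConA against ConA.

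Within number 1, counts of genes at least 4-fold apart were taken on CPM + 1, with no test since each group has 1 such library. ConA 1 was at least 4-fold above Control 1 for 3 of the 7 genes, Cd14, Tlr2 and Lbp, beside 6.5% of all genes, and at least 4-fold below it for none of the 7, beside 3.59% of all genes. MSA_ConA 1 was at least 4-fold below ConA 1 for 3 of the 7 genes, Tlr2, Cd14 and Ly96, beside 4.49% of all genes, and above it for none, beside 1.98%. MSA_ConA 1 was at least 4-fold above Control 1 for Cd14 alone, beside 4.93% of all genes, and below it for none, beside 4.46%. Myd88 lay at that limit in MSA_ConA 1 against Control 1. No member of the 7 was 4-fold apart in numbers 2 and 3 in any of the 3 comparisons.

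Sums of other cells' markers varied between libraries too, and the sums were not tested. No gene of the marker lists was called between groups (edgeR, beside 0% of all genes). The 8 neutrophil markers summed to 63.7 CPM in MSA_ConA 1, 453 CPM in ConA 1 and 9.47 CPM in Control 1, and to between 2.67 and 7.52 CPM in the 6 other libraries. S100a9 and S100a8 made 262 and 111 CPM of the ConA 1 sum, and 28.5 and 17.7 CPM of the MSA_ConA 1 sum. Csf3r was the only one of the 8 that was lower in MSA_ConA 1 than in Control 1 (5.80 against 6.41 CPM). The counting interval of its ratio spans 1. Mmp8 and Cxcr2 of that list were at 0 in Control 1, and none of the list was at 0 in ConA 1 or MSA_ConA 1. The 7 T and NK cell markers summed to 2.64 CPM in MSA_ConA 1, with Cd3d, Cd8a, Gzmb and Ncr1 at 0, against 30.6 CPM in ConA 1 and 3.73 CPM in Control 1. In numbers 2 and 3 that sum lay between 2.39 and 3.87 CPM. Gzmb alone made 24.9 CPM of the ConA 1 sum, against 0.522 CPM in Control 1. Nkg7 (3.40 against 0.746 CPM) and Cd3d (0.971 against 0.224 CPM) were also higher in ConA 1. Cd3e, Cd8a, Klrb1c and Ncr1 were lower in ConA 1 than in Control 1, on 10 counts or fewer each and with counting intervals that span 1. Markers of Kupffer cells, the resident macrophages that carry CD14 and TLR4, were 8 genes that summed to 140 CPM in MSA_ConA 1, 236 CPM in ConA 1 and 411 CPM in Control 1. Control 1, lowest of these in Cd14, was highest in the sum of Kupffer cell markers, of which Clec4f made 186 CPM. In libraries 2 and 3 the Kupffer cell sum was 311 and 246 CPM in MSA_ConA, 248 and 231 CPM in ConA and 351 and 254 CPM in Control. The sum of ConA 1 thus lay between those of ConA 2 and ConA 3. Of these 8 genes, 2 were higher in ConA 1 than in Control 1 and the others were lower. The higher ones were Marco, at 59.3 against 18.2 CPM, and Adgre1, at a ratio of 1.86. The 5 monocyte markers in the table summed to 4.35 CPM in MSA_ConA 1, 18.4 CPM in ConA 1 and 8.28 CPM in Control 1, with Itgam at 0 in all 3. The monocyte sum lay between 9.72 and 14.3 CPM in numbers 2 and 3. Chil3 alone made 11.8 CPM of the ConA 1 sum, against 0.298 CPM in Control 1. Ccr2 (0.874 against 1.42 CPM) and Cx3cr1 (0 against 1.49 CPM) were lower in ConA 1. Fcgr1 (5.73 against 5.07 CPM) was higher there, with a counting interval of the ratio that spans 1. Cholangiocyte markers, 5 genes, summed to 116 CPM in MSA_ConA 1, 784 CPM in ConA 1 and 59.3 CPM in Control 1. Sox9 made 636 CPM of the ConA 1 sum. Across numbers 2 and 3 the cholangiocyte sum was 48.8 to 68.0 CPM. Adipocyte markers, 6 genes, summed to 494 CPM in MSA_ConA 1, 144 CPM in ConA 1 and 15.9 CPM in Control 1. In libraries 2 and 3 they summed to 9.69 and 126 CPM in MSA_ConA, 101 and 9.21 CPM in ConA and 13.1 and 7.96 CPM in Control. The sum was thus high in MSA_ConA 3 and ConA 2 as well. Cidec made 442 CPM of the MSA_ConA 1 sum, and Adipoq, Plin1 and Lep were at 0 in all 3 libraries numbered 1. Skeletal muscle markers, 10 genes, summed to 121, 328 and 4454 CPM in MSA_ConA libraries. Atp2a1 made 119 CPM of the MSA_ConA 1 sum, with Myh1, Myh2, Myh4, Ckm, Myl1 and Tnnc2 at 0 there. The same markers summed to 2.91, 354 and 61.3 CPM in ConA libraries, and to at most 1.99 CPM in Control libraries. The part of these cells in the values of the 7 genes was not tested.

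The genes whose profiles over the 9 libraries were most like each of the 7 were ranked by the root-mean-square difference of centred log2(CPM + 1), a description with no test. Nearest to Tlr2 were Icam1 at 0.21, Gbp5 at 0.26 and Rsad2 at 0.27. Icam1, an adhesion molecule for leukocytes, measured 1559 CPM in ConA 1 and 13.8 to 18.9 CPM in the 8 other libraries. Nearest to Cd14 were Atf3 at 0.50, Hilpda at 0.55 and Plscr1 at 0.60. Atf3, a stress-induced transcription factor, measured 195 CPM in MSA_ConA 1, 1658 CPM in ConA 1 and 7.53 CPM in Control 1. Nearest to Lbp was Rela, which encodes the NF-kappa-B subunit p65, at 0.12, with 175 CPM in MSA_ConA 1, 379 CPM in ConA 1 and 51.9 CPM in Control 1. Chmp4b and Kctd3 followed for Lbp. Lcp2, Slc22a4 and Nmi were nearest to Ly96, and Zfp874a, Brat1 and 5033417F24Rik were nearest to Tlr3. Kif2a and Peak1 were the nearest named genes to Tlr4, and Slc22a21 and Zfp777 to Myd88.

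Of the other Toll-like receptors, 6 of 9 listed genes could be tested, and none was called between groups (edgeR, beside 0% of all genes). Tlr5, the flagellin receptor, measured 4.62, 12.7 and 11.4 CPM in MSA_ConA libraries, 2.14, 11.97 and 11.7 CPM in ConA libraries and 13.7, 12.02 and 13.5 CPM in Control libraries. It was low in the treated libraries numbered 1, opposite to Tlr2 in ConA 1. Tlr13, a sensor of bacterial ribosomal RNA in mice, measured 2.77 CPM in MSA_ConA 1, 10.4 CPM in ConA 1 and 1.64 CPM in Control 1. For the ConA against Control effect, the difference between number 1 and the others was 2.40 on the log2 scale for Tlr13, -2.57 for Tlr5 and -1.66 for Tlr12 (edgeR, adjusted p of 0.0446 for Tlr13 to 0.00273 for Tlr5).

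Of 20 adaptors and kinases below the receptors, 19 were tested and none was called between groups (edgeR). For the ConA against Control effect, 6 were higher in number 1 and 1 was lower, beside 31.1% of all genes called either way. Ikbke, an IKK-related kinase, measured 7.65, 33.0 and 31.2 CPM in MSA_ConA libraries, 872, 47.9 and 35.01 CPM in ConA libraries and 59.95, 33.1 and 48.3 CPM in Control libraries, so that ConA 1 alone was high. Irak2, a kinase of the MyD88 complex, followed Myd88 in being high in both treated libraries numbered 1, at 153 CPM in MSA_ConA 1, 234 CPM in ConA 1 and 43.4 CPM in Control 1. Ticam1, which encodes TRIF, the adaptor of TLR3, measured 61.7 CPM in MSA_ConA 1, 22.8 CPM in ConA 1 and 11.6 CPM in Control 1. For the MSA_ConA against ConA effect, 4 were higher in number 1 (Chuk, Tab2, Map3k7 and Ticam1) and 5 were lower (Ikbke, Irf7, Irf3, Traf3 and Irf5), beside 18.7% of all genes. Tab2, a partner of the kinase TAK1, measured 394 CPM in MSA_ConA 1, 99.4 CPM in ConA 1 and 46.6 CPM in Control 1.

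Among the 6 lists, the inhibitors of Toll-like receptor signalling (11 tested of 13 listed) had the highest list median in ConA 1 over Control 1, 3.31 on the log2 scale of CPM + 1, and -1.81 in MSA_ConA 1 over ConA 1. None was called between groups (edgeR). For the ConA against Control effect 6 were higher in number 1 and none was lower, beside 31.1% of all genes, and for the MSA_ConA against ConA effect 5 were lower and none was higher, beside 18.7%. Tnfaip3, which encodes the ubiquitin-editing enzyme A20, measured 6.33, 4.27 and 2.84 CPM in MSA_ConA libraries, 1076, 4.44 and 4.89 CPM in ConA libraries and 1.42, 3.29 and 2.86 CPM in Control libraries. As for Tlr2, ConA 1 was the single high library. Socs1, a suppressor of cytokine signalling, measured 15.7 CPM in MSA_ConA 1, 176 CPM in ConA 1 and 0.522 CPM in Control 1, and Irak3, an inhibitory kinase homologue, measured 2.24, 63.1 and 1.27 CPM in the same 3 libraries. Dusp1, a phosphatase of MAP kinases, measured 121, 13.5 and 41.8 CPM in MSA_ConA libraries, 427, 63.1 and 17.2 CPM in ConA libraries and 42.1, 11.6 and 16.3 CPM in Control libraries. Tollip measured 103 CPM in MSA_ConA 1, 105 CPM in ConA 1 and 36.2 CPM in Control 1. Its values in numbers 2 and 3 were 51.5 to 70.0 CPM, so that Control 1 was the lowest library.

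Other genes of lipopolysaccharide handling, of which 8 of 10 were tested, and the 4 genes of receptor trafficking and folding had no call between groups (edgeR). Casp4, which encodes the cytosolic sensor of lipopolysaccharide in mice, measured 4.88 CPM in MSA_ConA 1, 25.6 CPM in ConA 1 and 1.12 CPM in Control 1, and Itgb2, a leukocyte integrin chain, measured 7.39, 34.85 and 4.77 CPM in these libraries. The ConA against Control effect of both was higher in number 1, and the MSA_ConA against ConA effect of both was lower. Scarb1, a lipoprotein receptor that also takes up lipopolysaccharide, measured 262 CPM in MSA_ConA 1, 239 CPM in ConA 1 and 108 CPM in Control 1. In numbers 2 and 3 it measured 155 to 257 CPM, so that Control 1 was the lowest library. Cd36 measured 29.6 CPM in MSA_ConA 1 and 29.6 CPM in ConA 1, and 19.3 CPM in Control 1, and Pltp measured 29.7, 38.0 and 48.2 CPM in them. Hsp90b1, the chaperone that folds Toll-like receptors, measured 1632 CPM in MSA_ConA 1, 355 CPM in ConA 1 and 585 CPM in Control 1, and its MSA_ConA against ConA effect was higher in number 1 by 2.28 on the log2 scale (edgeR adjusted p of 0.00751). Cnpy3 and Unc93b1, also among the genes of receptor trafficking and folding, measured 56.99 and 39.2 CPM in MSA_ConA 1. They measured 37.9 and 55.1 CPM in ConA 1 and 76.4 and 60.3 CPM in Control 1.

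Of 10 listed sensors outside the Toll-like family, 9 were tested and none was called between groups (edgeR). In number 1 the ConA against Control effect was higher for 5 and lower for 1, beside 31.1% of all genes, and the MSA_ConA against ConA effect was lower for 7 and higher for 1, beside 18.7%. Ripk2, the kinase below NOD receptors, measured 8.71, 9.53 and 9.49 CPM in MSA_ConA libraries, 316, 7.48 and 9.61 CPM in ConA libraries and 7.08, 8.83 and 9.47 CPM in Control libraries. Mavs, the mitochondrial adaptor of RNA helicase sensors, was the gene with the opposite calls, at 59.4 CPM in MSA_ConA 1, 26.4 CPM in ConA 1 and 60.8 CPM in Control 1. Ifih1, which encodes the RNA sensor MDA5, measured 13.3 CPM in MSA_ConA 1, 50.4 CPM in ConA 1 and 30.0 CPM in Control 1. Like Tlr3, another sensor of double-stranded RNA, it was lowest of all 9 libraries in MSA_ConA 1.

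**Figure D5:**
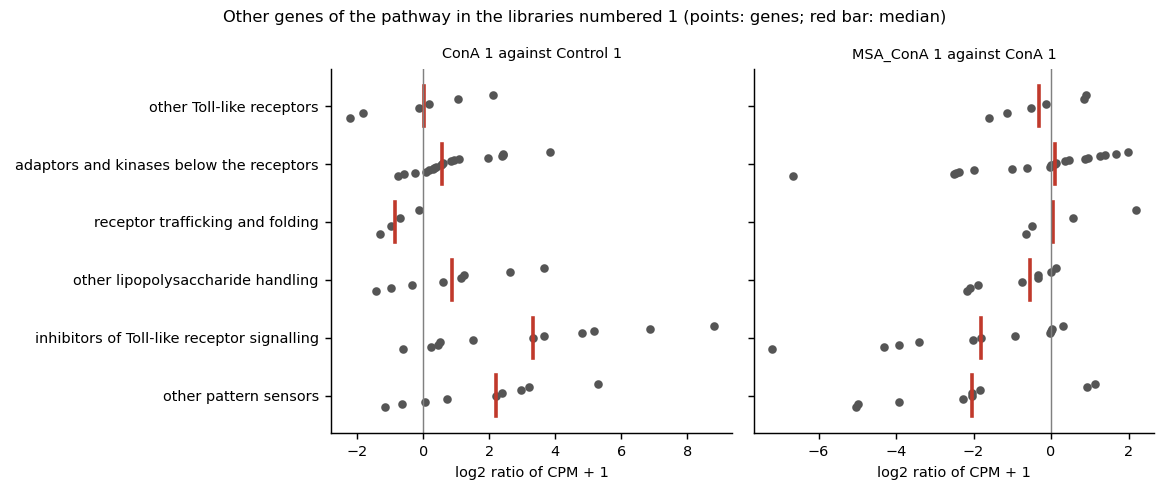
Log2 ratio of CPM + 1 between libraries numbered 1 for the genes of the 6 other pathway lists, with each list's median. The inhibitors of Toll-like receptor signalling have medians of 3.31 in ConA 1 over Control 1 and -1.81 in MSA_ConA 1 over ConA 1.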

How the data were processed

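Liver RNA was sequenced in 9 libraries, 3 each of MSA_ConA, ConA and Control, grouped by their titles. The authors deposited raw counts per gene and FPKM per gene; per the submitters' processing notes the tools include Bowtie 0.12.2 and the builds are mm8 and mm10, without roles, and how reads were counted is not given in the sources used here. The tables' coordinates follow the C57BL/6NJ assembly. Column names that begin with M were read as MSA_ConA.

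CPM values are the deposited counts over library totals multiplied by TMM factors of 0.571 to 1.26 (a trimmed mean of log ratios). A single count was worth 0.0516 to 0.132 CPM, and intervals cover counting error only. The counts were tested by quasi-likelihood in edgeR 4.0.16 under R 4.3.3, with TMM, filterByExpr by group (14603 of 42188 genes kept), all 9 libraries in 1 fit and a Benjamini-Hochberg adjusted p under 0.05 over all genes tested. FPKM was used for levels between genes and was not tested. The model was tested on simulated counts. Alternatives were DESeq2 1.42.0, other scalings and filters, only the groups compared, blocks by library number, numbers 2 and 3 alone, and each library left out in turn.

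Same-numbered libraries deviated together from their group means, with correlations across genes of 0.479 to 0.713 in number 1, 0.349 to 0.553 in number 2 and 0.303 to 0.472 in number 3. Every same-numbered pair lay over the bound of 0.1 above which numbers are taken as pairs. The main tests between groups used no block all the same, and blocks were run as alternatives. Libraries of number 2 correlated as highly with those of number 3 (0.313 to 0.681), and those of number 1 negatively with the rest. Deviations were taken from means of 3 libraries. An outlying number 1 thus lowers its correlation with the rest and raises that of numbers 2 and 3, so the check cannot show pairing beyond that division.

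The 7 genes, the pathway and marker lists and the division by library number were chosen with earlier results of these data known. Named genes were the 7, the 3 members of each list with the highest mean CPM, list members called in a comparison described, and the 3 genes nearest in profile to each of the 7. Promoter sequences are from RefSeq, GRCm38.p6.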

Additional observations from a re-analysis of the deposited data

Results flagged for a closer look

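For 13 values the effect in number 1 differed from that in numbers 2 and 3 by a test of the difference itself (edgeR quasi-likelihood, adjusted p under 0.05), with 1 library numbered 1 in each group and log2 units throughout. For ConA against Control they were 8.54 for Cd14, 6.96 for Tlr2, 3.07 for Lbp and 1.77 for Myd88, with ConA 1 above Control 1 in each. For MSA_ConA against ConA they were -6.63 for Tlr2, -4.42 for Ly96, -2.29 for Cd14 and -1.60 for Tlr3, with MSA_ConA 1 below ConA 1 in each. For MSA_ConA against Control they were 6.25 for Cd14, 2.28 for Lbp, 2.27 for Myd88, -2.12 for Tlr3 and -3.62 for Ly96. The value of Ly96 rests on 3 counts in MSA_ConA 1. Xist and Nnt divide the libraries by the same numbers, and these divisions cannot be told apart.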

How the results depend on the processing

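None of the 7 genes was called between groups by edgeR under any alternative run, nor by DESeq2, which called 2 genes of all tested for ConA against Control and 55 for MSA_ConA against Control. Values below are log2 fold changes of opposite sign to those reported, and the cause was not tested. With numbers 2 and 3 alone, ConA against Control gave -0.16 for Lbp, -0.40 for Cd14, -0.13 for Myd88 and -0.091 for Tlr2. MSA_ConA against ConA gave -0.14 for Myd88, 0.055 for Tlr2, 0.18 for Tlr3, 0.0096 for Ly96 and 0.30 for Tlr4. MSA_ConA against Control gave -0.37 for Lbp, -1.16 for Cd14, -0.27 for Myd88, -0.037 for Tlr2, 0.37 for Tlr3 and 0.20 for Ly96. Under a replicate block by library number, Tlr3 in ConA against Control stood at -0.0082, and Cd14 and Tlr2 in MSA_ConA against Control at -0.47 and -0.019. With a block for number 1 against the others these were -0.0028, -0.55 and -0.0011. Neither block changed a call of the 7 genes. With library totals, Tlr3 in ConA against Control stood at -0.015, Tlr4 in MSA_ConA against ConA at 0.12 and Tlr2 in MSA_ConA against Control at -0.045, and the difference of the last effect between number 1 and the others at -0.49 for Tlr2. Tlr4 in MSA_ConA against ConA was 0.0052 with DESeq2 and 0.011 with only the groups compared. Library totals moved the median of all genes in number 1 against the others to -0.81, against -0.10 with TMM. The count of the 7 at least 4-fold apart in MSA_ConA 1 against Control 1 was 2 with relative log expression factors and 2 with library totals, in place of 1.

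Leaving out each library in turn gave, for ConA against Control, -0.12 to 2.03 for Lbp, -0.53 to 7.39 for Cd14, -0.41 to 1.34 for Myd88, -0.068 to 0.12 for Tlr3 and -0.24 to 1.08 for Ly96. For MSA_ConA against ConA it gave -1.95 to 0.89 for Lbp, -8.12 to 4.29 for Cd14, -1.52 to 1.58 for Myd88, -5.54 to 0.0035 for Tlr2, -0.56 to 0.25 for Tlr3 and -0.37 to 0.42 for Tlr4. For MSA_ConA against Control it gave -0.35 to 1.13 for Lbp, -1.31 to 4.32 for Cd14, -0.57 to 1.60 for Myd88, -0.12 to 0.16 for Tlr2 and -0.53 to 0.28 for Tlr3. Number 1 against the others gave -0.26 to 4.56 for Tlr2 and -0.16 to 1.46 for Ly96, with 2 to 4 of the 7 genes called. For the difference of the MSA_ConA against ConA effect, 1368 to 2649 genes were called in place of 2724, and 2 to 4 of the 7. Over all log2 fold changes of the 7 genes, 558 values under alternatives kept their sign and side of the threshold, 52 changed sign, 23 lost a call and 4 gained one. Depth limits Ly96 and Tlr4, at 3 and 4 counts in MSA_ConA 1.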
